A study of Caenorhabditis elegans with 4 samples.

Results

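The sites described here are the EFL-1::GFP binding sites of Caenorhabditis elegans chromosome IV. They are all entries of the combined peak list whose chromosome is IV, which is 396 of 2332 sites. The rule uses the chromosome name alone, and chromosome IV was taken up with earlier results of these data known. The sites come from chromatin immunoprecipitation followed by sequencing (ChIP-seq) of whole hermaphrodite larvae of the fed L1 stage that were kept at 20 °C and fixed with 2% formaldehyde. All 4 libraries, 2 from ChIP with a goat antibody against GFP and 2 from Input chromatin, share 1 strain, YL418. It carries the mutation unc-119(ed3) on chromosome III and the transgene vrIs65, in which pGES-1 drives EFL-1 fused to GFP and FLAG, with unc-119(+) as the rescuing marker. The strain was not outcrossed. Its label gives the intestine as the tissue that expresses the fusion, while the chromatin came from whole larvae. The libraries are numbered replicates 2 and 3, and nothing says whether these were separate cultures. No precipitation from a strain without the tag was analysed, so precipitation of open chromatin without the tagged protein cannot be told apart from binding.

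EFL-1 is an E2F-family transcription factor. E2F proteins bind DNA together with a DP partner, DPL-1 in the worm, and with the retinoblastoma-like protein LIN-35 they can hold cell cycle genes silent. In the growing larva, intestinal nuclei stop dividing and go through rounds of DNA replication without division, a program in which E2F factors are known to act in animals. Worm autosomes have a gene-rich centre and arms that recombine more often and hold more repeats, and they lack a single centromere. Chromosome IV is also known for broad clusters of piRNA (21U-RNA) genes, whose small RNAs silence transposons in the germline.

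Each site has a start, an end, a score and a number in its name. On chromosome IV, 338 of 396 sites (85.4%) had the highest score of the list, against 88.3% of all 2332 sites. Sites were therefore ranked by score, and by the number in the name where scores were equal, so most of the ranks below rest on that number. Each ChIP replicate has its own list of 30000 peaks, ranked in the same way. A site was taken as found in a replicate when it overlapped a peak there by at least 1 bp, and as strongly found when that peak was among the best 2332 of the replicate, the size of the combined list. Read depth is unknown, and intervals are 95% exact (Clopper-Pearson) intervals that cover counting error only.

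The best-ranked sites of chromosome IV come first, with their rank in each library. The site at IV:14464057-14464354 (WS220, as are all positions below) had rank 4 in the combined list, rank 5 in replicate 2 and rank 4 in replicate 3. IV:12724655-12724945 had combined rank 9, with rank 12 in replicate 2 and rank 10 in replicate 3. IV:17249708-17250006 had combined rank 12, with rank 22 in replicate 2 and rank 3 in replicate 3. These 3 leading sites all lay in the right section of the chromosome when it is cut into 3 sections of equal length, the part of it with the fewest sites, and they were also its 3 widest, at 298, 291 and 299 bp. The next was IV:5183716-5183992, in the left section, with combined rank 22, rank 46 in replicate 2 and rank 13 in replicate 3. It was followed by IV:2676328-2676603, also on the left, with combined rank 44, rank 48 in replicate 2 and rank 36 in replicate 3. The best site of the central section was IV:10734568-10734835, with combined rank 51, rank 69 in replicate 2 and rank 41 in replicate 3. The other 6 of the best 12 had combined ranks from 73 to 91, at IV:4049563-4049841, IV:6206447-6206704, IV:874738-874998, IV:12371919-12372175, IV:5731669-5731930 and IV:2177606-2177864. Their ranks ran from 61 to 120 in replicate 2 and from 47 to 117 in replicate 3. Of the 12, 6 were in the left section, 2 in the central section and 4 in the right section.

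Most sites of chromosome IV were found in both libraries. Of the 396 sites, 382 overlapped some peak of replicate 2, where 95.1% of all combined sites did, and 395 overlapped some peak of replicate 3, where 99.9% of all did. The combined list was made from these libraries, so part of each share is built in. Strong support was less even. In the best 2332 peaks of replicate 2, 296 sites of chromosome IV were found, or 74.7% (70.2 to 79.0%), beside 73.8% of all sites. In the best 2332 of replicate 3 there were 342, or 86.4% (82.6 to 89.6%), beside 90.1% of all sites. Both replicates gave strong support to 262 sites, or 66.2% (61.3 to 70.8%), beside 66.7% of all sites. Replicate 3 alone strongly supported 80 sites and replicate 2 alone 34. More sites followed replicate 3, and the 114 sites departed from an even split (two-sided exact McNemar test, p = 2.0e-05, adjusted p = 5.9e-05 over 6 tests within chromosome IV). The whole list leaned the same way. Replicate 3 alone supported 70.2% of the 114 sites, beside 398 of 524 such sites on the other autosomes (76.0%, 72.1 to 79.6%) and 546 of 711 in the whole list (76.8%). With the best 1166 peaks of each replicate in place of 2332, the counts were 32 and 29, and the call was lost (exact McNemar test, p = 0.80).

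**Figure D1:**
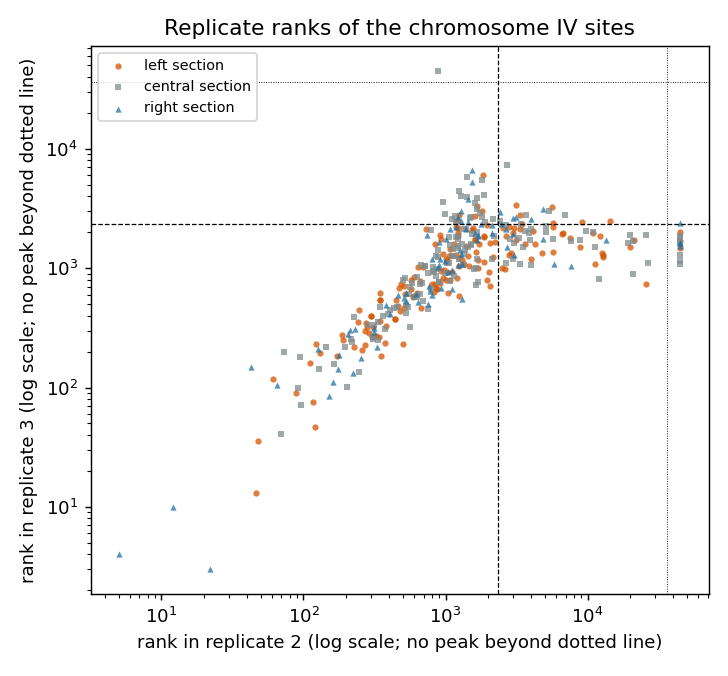
Rank of the best overlapping peak in replicate 2 (x axis) and in replicate 3 (y axis), both on log scales, for the 396 combined sites of chromosome IV, marked by section of the chromosome. Dashed lines mark rank 2332, and points beyond the dotted lines have no peak in that replicate. The points run along the diagonal at low ranks and spread out near rank 1000, with 14 sites at the right edge and 1 at the top.

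The ranks of chromosome IV sites in the 2 libraries had a Spearman coefficient of 0.79 across the 381 sites with a peak in both, and of 0.82 across 1706 such sites of the other autosomes. These are descriptions across sites of 1 pair of libraries, many of them with tied scores. The median rank was 1116 in replicate 2 and 1140 in replicate 3. A better rank in replicate 2 was seen for 183 of the 381 sites, and in replicate 3 for 198. Support fell along the combined list. Combined ranks on chromosome IV had a Spearman coefficient of 0.87 with those of replicate 2 and 0.97 with those of replicate 3. The combined list was made from these libraries, so part of this fall is built in. Both replicates strongly supported all 53 chromosome IV sites of combined ranks 1 to 300 and all 52 of ranks 301 to 600. For ranks 601 to 1166 this was 85 of 90 sites, and for ranks 1167 to 2332 it was 72 of 201. The other autosomes gave 420 of 441 and 319 of 860 in the same 2 ranges.

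Some sites rested on 1 library. Replicate 2 had no peak at 14 sites of chromosome IV (3.54%, against 4.74% on the other autosomes). Their combined ranks began at 1421, and replicate 3 placed them between ranks 1080 and 2390. The best-ranked were IV:8927084-8927373, with combined rank 1421 and rank 1080 in replicate 3, IV:11520997-11521286, with ranks 1450 and 1300, and IV:11210882-11211171, with ranks 1465 and 1141. All 3 lay in the central section. Replicate 3 had no peak at a single site, IV:8587058-8587347, which ranked 2020 in the combined list and 879 in replicate 2.

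Neither replicate held 20 of the chromosome IV sites among its best 2332, or 5.05%, beside 2.79% of all sites and 2.12% of those of the other autosomes. The best-ranked of these were IV:7291122-7291411, at rank 2417 in replicate 2 and 2468 in replicate 3, IV:11821922-11822211, at ranks 2461 and 2353, and IV:2639771-2640060, at ranks 3440 and 2367. They began at combined rank 1972, and 19 of the 20 still had a peak in both full lists. The lowest-ranked sites of chromosome IV were of the same kind or had 1 strong replicate. IV:10197365-10197654, at combined rank 2331, ranked 1608 in replicate 2 and 3509 in replicate 3. IV:4407008-4407297, at combined rank 2329, ranked 9197 in replicate 2 and 2457 in replicate 3. IV:9196305-9196594, IV:6129605-6129894 and IV:7168340-7168629 had combined ranks from 2316 to 2325, replicate 2 ranks from 2700 to 3711 and replicate 3 ranks from 1750 to 7317.

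Chromosome IV was then set against chromosomes I, II, III and V by Fisher's exact tests, two-sided, on 8 shares, with Benjamini-Hochberg adjustment over the 8. These tests treat sites as independent, which neighbouring sites need not be. The site shares in this family have 396 sites on chromosome IV and 1793 on the other autosomes. In the best 2332 peaks of replicate 3 the share was 86.4% on chromosome IV and 90.9% (89.4 to 92.1%) on the other autosomes, and the odds ratio of 0.64 passed (adjusted p = 0.037, Fisher's exact test). Chromosome IV had the lowest share of the 5 autosomes, below 89.6% on chromosome II, 90.6% on I, 91.3% on V and 91.7% on III. This call was lost when chromosome III or chromosome V was left out of the comparison (Fisher's exact test, adjusted p = 0.096 and 0.058), with the best 1166 or the best 4664 peaks (adjusted p = 0.80 and 0.34), and with reciprocal overlap of 50% (adjusted p = 0.098). For replicate 2 the shares were 74.7% and 75.7% (Fisher's exact test, odds ratio 0.95, adjusted p = 0.80), and for both replicates together 66.2% and 68.7% (odds ratio 0.89, adjusted p = 0.54). In the best 1166 sites of the combined list, which are 50% of all sites by construction, were 195 sites of chromosome IV, or 49.2% (44.2 to 54.3%), and 52.0% (49.7 to 54.4%) of those of the other autosomes (Fisher's exact test, adjusted p = 0.54). The median combined rank was 1196.5 on chromosome IV and 1122 on the other autosomes. No difference was detected in these last 3 shares. With the highest score in place of the best 1166 sites, the shares were 85.4% on chromosome IV and 89.4% on the other autosomes. This also missed the threshold (odds ratio 0.69, Fisher's exact test, p = 0.028, adjusted p = 0.075).

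**Figure D2:**
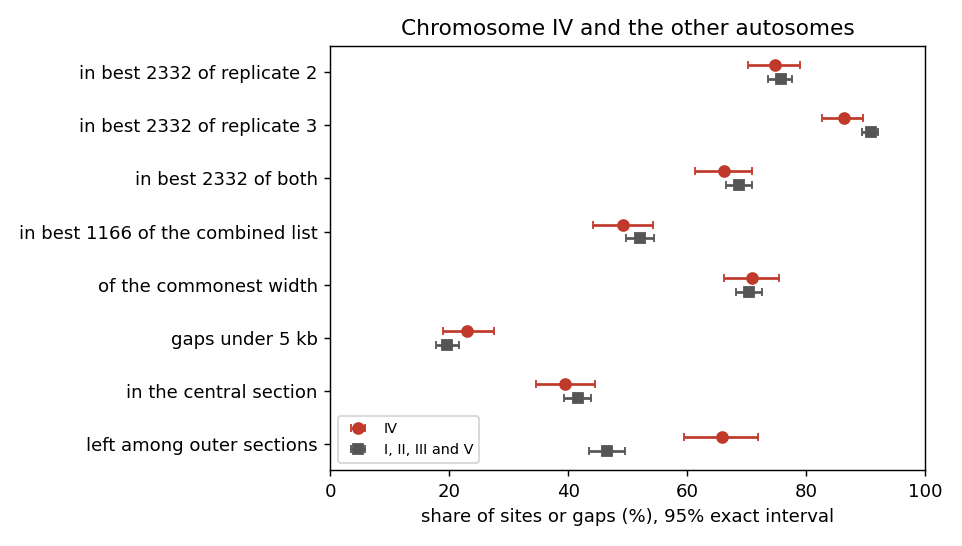
Shares on chromosome IV (circles, upper of each pair) and on chromosomes I, II, III and V together (squares), in percent with 95% exact intervals, for the 8 comparisons. The intervals stand clear of each other for the left share among sites of the outer sections alone, at 65.8% against 46.5%.

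The sites were narrow, and the peak caller gave most of them the same width. The commonest width, 290 bp, was that of 281 chromosome IV sites, or 71.0% (66.2 to 75.4%), beside 72.2% of all sites and 70.4% on the other autosomes (odds ratio 1.03, Fisher's exact test, adjusted p = 0.86). Of the remaining 115 sites, 112 were narrower and the 3 leading sites were wider. These 115 were the better-ranked ones: their median combined rank was 314, against 1557 for the 281 sites of 290 bp. None of the sites of combined ranks 1 to 300 was 290 bp wide, and 199 of the 201 sites beyond rank 1166 were. Strong support in both replicates was held by 114 of the 115 sites of other widths (99.1%) and by 148 of the 281 of the common width (52.7%). On the other autosomes these shares were 99.8% and 55.6%. Width and rank come from the same peak caller, so these shares describe its output. The narrowest site was IV:2902096-2902167, 72 bp wide, at combined rank 1084 with rank 1022 in replicate 2 and rank 1140 in replicate 3. The next were IV:6585556-6585628, IV:1953184-1953268, IV:8891298-8891383 and IV:3384714-3384801, from 73 to 88 bp wide, with combined ranks from 510 to 646. After the 3 widest, the width of 290 bp follows, with IV:3050539-3050828 the best-ranked at combined rank 489 and IV:2389002-2389291 the second at rank 527.

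Replicate peaks lay close to the middle of the sites. The median distance between the midpoints of a site and of its replicate peak was 17 bp in replicate 2 and 5 bp in replicate 3, against 14 bp and 4.5 bp on the other autosomes. Distances over 100 bp occurred at 34 of 382 sites in replicate 2 (8.90%) and at 9 of 395 in replicate 3 (2.28%), beside 7.26% and 1.84% on the other autosomes. Of the replicate peaks behind the chromosome IV sites, 83.0% had the commonest width of 304 bp in replicate 2, and 71.6% that of 280 bp in replicate 3, beside 82.4% and 70.8% on the other autosomes.

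Along the chromosome, sites were frequent on the left and in the centre and sparse on the right. Chromosome IV, taken as 17492244 bp long from the last peak end in the 3 lists, had 22.6 sites per Mb, against 27.6 per Mb over the other autosomes. Of the 3 sections, the left one held 158 sites (27.1 per Mb), the central section 156 (26.8 per Mb) and the right section 82 (14.1 per Mb). Among the sites of the outer sections, 65.8% (59.5 to 71.8%) were on the left, which differed from an even split (exact binomial test, two-sided, p = 1.1e-06, adjusted p = 6.4e-06). Like the tests against the other autosomes, those within chromosome IV treat sites as independent, which neighbouring sites need not be. The split remained uneven under every list of sites tried. The left share was 67.5% in the best 2332 peaks of replicate 3 alone and 61.3% in those of replicate 2 alone. It was 66.1% for sites strongly supported by both replicates, 66.7% in the best 1166 combined sites and 63.1% when sites within 5 kb were merged (exact binomial tests, adjusted p at most 0.0014).

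The other autosomes as a group had more outer sites on the right. Their outer sections held 487 sites on the left and 561 on the right, a left share of 46.5% (43.4 to 49.5%), so that the odds ratio of chromosome IV against them was 2.22 (Fisher's exact test, adjusted p = 5.3e-07). The left share was 55.0% on chromosome I, 55.0% on V, 43.6% on III and 32.4% on II. Chromosome IV thus lay at one end of the 5 and chromosome II at the other, with a difference of the opposite sign. Without chromosome II the odds ratio was 1.88 (Fisher's exact test, adjusted p = 2.8e-04), and without each of the other 3 in turn it ranged from 2.12 to 2.55. The central section held 39.4% of the chromosome IV sites (34.6 to 44.4%) and 41.6% (39.3 to 43.9%) of those of the other autosomes. No difference was detected (odds ratio 0.91, Fisher's exact test, adjusted p = 0.62). With a central section as long as both outer sections together, the shares were 54.0% and 60.5%. The odds ratio of 0.77 just missed the threshold (Fisher's exact test, p = 0.020, adjusted p = 0.054). How far chromosome IV fell below the other autosomes thus depended on where the centre was cut. On chromosome IV the central section (26.8 per Mb) had no more sites than the left one (27.1 per Mb). On chromosome I the central section held 39.3 per Mb, against 33.1 on the left and 27.1 on the right, and on chromosome III 47.5 per Mb, against 28.7 and 37.2. On chromosome V it held 23.9 per Mb, against 15.9 on the left and 13.05 on the right. Chromosome II had 32.0 per Mb in both its central and its right section and 15.3 per Mb on the left.

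**Figure D3:**
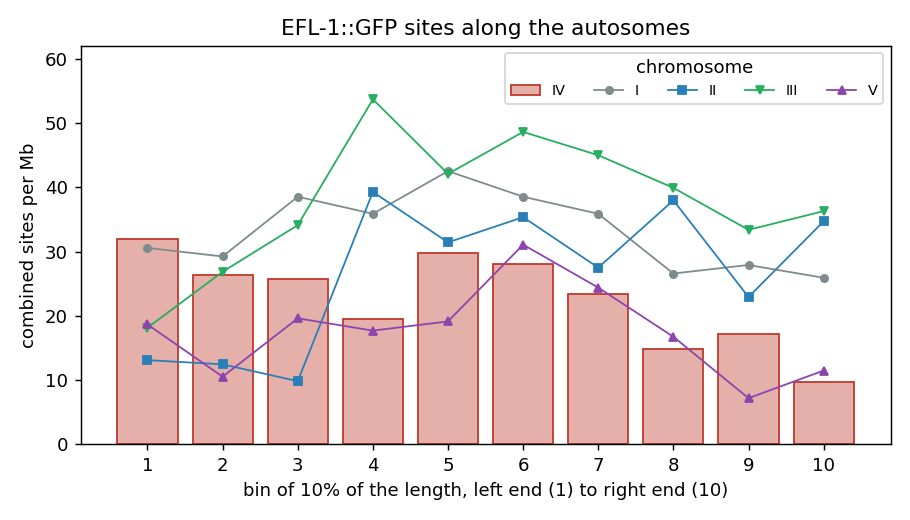
Combined sites per Mb in each of 10 equal bins of chromosome IV (bars) and of chromosomes I, II, III and V (lines), from the left end to the right end. On chromosome IV the first bin was the fullest, with 32.0 sites per Mb, and the last the emptiest, with 9.72.

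In windows of 1 Mb the change lay near 12 Mb, a position read from these counts. The 12 windows up to there held between 18 and 34 sites, with a median of 27.5, and the 5 whole windows beyond held between 12 and 15. The fullest window was the first, from 1 to 1000000, with 34 sites, followed by those from 4000001 to 5000000 and from 7000001 to 8000000 with 32 each. The sparsest whole window was the one from 16000001 to 17000000, with 12 sites. The 4 windows between 12000001 and 16000000 held 15 each. The 5 sites beyond 17000000 include the one of combined rank 12 and the last site of the chromosome, IV:17461375-17461584, with combined rank 314. The first site was IV:126257-126546, at combined rank 2070 with rank 2793 in replicate 2 and rank 2215 in replicate 3.

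Support and rank were then compared between the sections. Both replicates strongly supported 94 of 156 central sites, or 60.3% (52.1 to 68.0%), and 168 of 240 sites of the outer sections, or 70.0% (63.8 to 75.7%), a difference that did not pass after adjustment (Fisher's exact test, p = 0.051, adjusted p = 0.061). Of the outer sections, the left had 70.3% and the right 69.5%. The best 1166 sites of the combined list included 44.2% of the central sites (36.3 to 52.4%) and 52.5% of the outer ones (46.0 to 59.0%; Fisher's exact test, adjusted p = 0.12). Median combined ranks on chromosome IV were 1091.5 in the left section, 1293.5 in the central section and 1153.5 in the right section. The other autosomes together also had their weakest median in the central section, with 1132 on the left, 1211 in the centre and 974 on the right. The left section of chromosome IV, with 158 sites, had 53.2% of them in the best 1166, and its right section, with 82, had 51.2%.

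The full replicate lists show at which ranks the right section was sparse. Among the peaks of replicate 2 on chromosome IV, the right section held 22.6% of those of ranks 1 to 1166 (16.9 to 29.1%) and 23.9% of those of ranks 1167 to 2332 (18.4 to 30.1%). Its share was 29.7% at ranks 2333 to 5000 and 34.7% (32.9 to 36.5%) at ranks 15001 to 30000, where an even spread gives 33.3%. In replicate 3 the right section held 21.2% of peaks of ranks 1 to 1166 (15.7 to 27.6%) and 18.3% of those of ranks 1167 to 2332 (12.97 to 24.8%), then 28.7% at ranks 2333 to 5000 and 32.1% (30.3 to 33.9%) at ranks 15001 to 30000. In both libraries the low-ranked peaks were close to evenly spread over the sections and the best peaks were not. The share of all peaks that lay on chromosome IV differed between the libraries at middle ranks. At ranks 1 to 1166 it was 16.7% in replicate 2 and 16.98% in replicate 3, and at ranks 1167 to 2332 it was 18.7% (16.5 to 21.1%) and 15.4% (13.4 to 17.6%). At ranks 2333 to 5000 replicate 2 had 20.3% (18.8 to 21.9%) and replicate 3 had 16.0% (14.7 to 17.5%), the only one of these 4 ranges whose intervals stood apart. At ranks 15001 to 30000 it was 18.1% (17.5 to 18.7%) and 17.4% (16.8 to 18.0%).

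**Figure D4:**
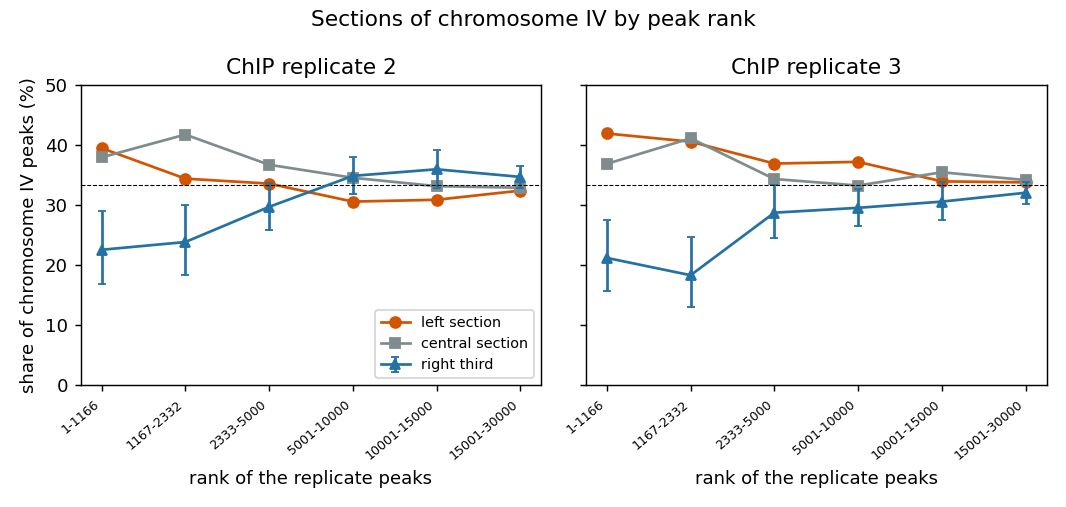
Share of the chromosome IV peaks of each replicate that lie in the left, central and right section, by rank of the peak. Bars on the right section are 95% exact intervals, and the dashed line marks an even spread. The right section starts at 22.6% and 21.2% in replicates 2 and 3 and approaches the dashed line beyond rank 5000 in replicate 2 and beyond rank 15000 in replicate 3.

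The piRNA gene clusters gave a further division of the chromosome. As windows inside them, the whole megabases from 5 to 7 Mb and from 14 to 17 Mb were used, placed from general knowledge of the clusters and not from an annotation. They held 81 of the 396 sites, or 20.5% (16.6 to 24.8%), on 28.6% of the length. This is 16.2 sites per Mb, against 25.2 per Mb on the rest of the chromosome, a ratio of 0.64 (exact binomial test, two-sided, p = 2.9e-04, adjusted p = 5.8e-04). With replicate 2 as the only source of peaks the ratio was 0.80 and missed the threshold (exact binomial test, adjusted p = 0.061), and with replicate 3 as the only source it was 0.59. The windows were unlike each other. The left one held 39 sites, or 19.5 per Mb, beside 28.4 per Mb from 0 to 5 Mb and 27.6 per Mb from 7 to 12 Mb. The right one held 42 sites, or 14 per Mb, beside 15 per Mb from 12 to 14 Mb. With windows widened to 4 to 7 Mb and 13 to 17 Mb, the ratio was 0.72 (exact binomial test, adjusted p = 0.0035). The wider left window held 71 sites, or 23.7 per Mb, beside 22.6 per Mb on the whole chromosome. Its surroundings were denser, with 27.6 per Mb from 7 to 12 Mb. The windows of 1 Mb from 0 to 4 Mb held 34, 26, 28 and 22 sites. How far the left window fell below its surroundings thus depended on where it began. The wider right window held 57 sites, or 14.25 per Mb. The low density of the right window and that of the whole right section cannot be told apart.

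Spacing on chromosome IV ranged from overlapping peaks to gaps of up to 473 kb. The median distance between neighbouring midpoints was 26093 bp, against 20932 bp on the other autosomes, whose density is higher. The lower and upper quartiles were 5759 bp and 60632 bp. Distances under 5 kb made up 91 of 395 on chromosome IV, or 23.0% (19.0 to 27.5%), and 351 of 1789 on the other autosomes, or 19.6% (17.8 to 21.5%), with an odds ratio of 1.23 that did not pass (Fisher's exact test, adjusted p = 0.34). The direction turned with the list of sites, since the odds ratio was 0.90 in the best 2332 peaks of either replicate alone. Distances under 1 kb, a limit chosen after the values were seen, made up 7.59% on chromosome IV and between 2.98% and 3.85% on each other autosome. Distances of 100 kb or more made up 49 of 395 on chromosome IV (12.4%), more than on chromosomes I (4.82%), II (8.19%) and III (3.46%) and less than on chromosome V (16.0%). The order of these shares was the reverse of the order of site density. The densities were 37.8 per Mb on III, 33.1 on I, 26.4 on II, 22.6 on IV and 17.6 on V.

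**Figure D5:**
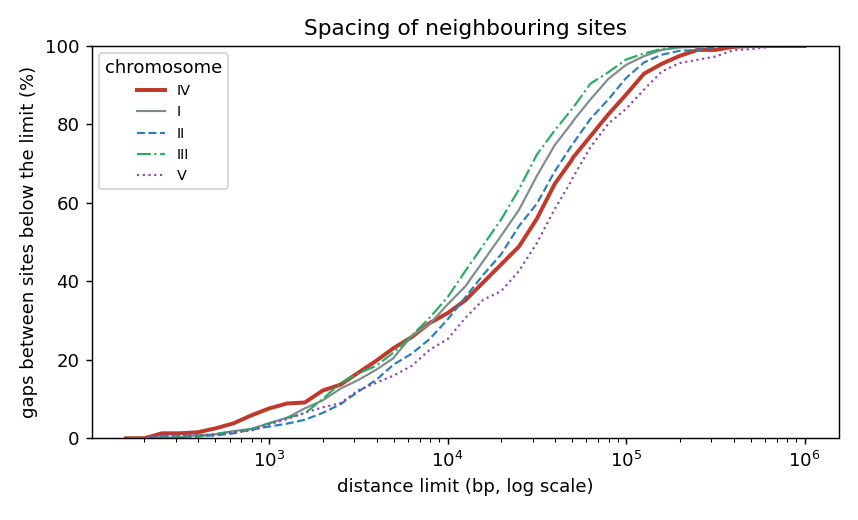
Share of the distances between neighbouring sites (y axis, percent) that lie below a limit (x axis, bp, log scale), for chromosome IV and the other 4 autosomes. The curve of chromosome IV is the highest at 1 kb, with 7.59%, and the second lowest at 100 kb, with 87.6%.

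The longest gaps of all lay on the right. The first of them ran for 473 kb between the sites IV:15696873-15697162 and IV:16169709-16169998. The next ran for 393 kb and ended at the best-ranked site of the chromosome, IV:14464057-14464354, with IV:14070963-14071252 on its other side. Another ran for 382 kb between IV:13395228-13395517 and IV:13777529-13777818, and one more for 343 kb between IV:15039585-15039798 and IV:15382630-15382755. A gap of 219 kb followed the longest directly, from IV:16169709-16169998 to IV:16388325-16388614. These 5 lay wholly in the right section, and no gap that ended in the left or central section exceeded 218 kb. Below that size long gaps were not confined to the right section. Of the 49 gaps of 100 kb or more, which include these 5, 19 ended on one of the 82 sites of the right section. Another 13 ended on one of the 158 sites of the left section and 17 on one of the 156 of the central section. For its number of sites, the right section thus had the most long gaps.

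Close sites formed runs, taken as 2 or more sites with less than 5 kb between neighbouring midpoints. Chromosome IV had 67 runs with 158 sites, or 39.9% of its sites, beside 34.6% of all combined sites and 35.2% of those of the other autosomes. The share was close to this on chromosomes III (39.0%) and I (37.3%), and lower on II (33.9%) and V (28.7%). On chromosome IV there were 49 runs of 2 sites, 12 of 3 and 6 of 4, none longer, and 238 sites stood alone. The 6 runs of 4 were split evenly between the left and the central section, and the right section held none. None of the 30 sites between 12 and 14 Mb was in a run. The closest neighbours there were 5013.5 bp apart, just over the limit, and the edge at 12 Mb was read from the site counts. The run of greatest extent covered 11.4 kb at IV:4019949-4031309, and its sites had combined ranks 1989, 1609, 1623 and 595 in order of position. Of these, 2 ranked 6641 and 8833 in replicate 2, but 1920 and 1496 in replicate 3, while the best, IV:4031196-4031309, ranked 471 and 685. The run at IV:255563-264680 covered 9.12 kb and was strongly supported throughout, with ranks from 172 to 1867 in replicate 2 and from 184 to 2072 in replicate 3. The next run of 4 by extent, at IV:4469972-4477265, covered 7.29 kb, less than some runs of 3. Its ranks ran from 639 to 10988 in replicate 2 and from 1033 to 2219 in replicate 3. The best sites of these runs of 4 had combined ranks 595, 180 and 821, and their lowest-ranked sites 1989, 1846 and 2292.

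Sites in runs had strong support from both replicates in 95 of 158 cases, or 60.1% (52.0 to 67.8%), and lone sites in 167 of 238, or 70.2% (63.9 to 75.9%). The difference missed the threshold after adjustment (odds ratio 0.64, Fisher's exact test, p = 0.040, adjusted p = 0.060). The closest pair was IV:9444426-9444715 and IV:9444629-9444918, with midpoints 203 bp apart. These peaks overlap each other, and the same replicate peak, of rank 712 in replicate 2 and rank 1037 in replicate 3, lies under both. On chromosome IV, 7 sites in 3 groups overlapped a neighbouring site (1.77% of its sites), against 12 sites on the other autosomes together (0.67%). With overlapping sites merged, distances under 1 kb still made up 6.65% on chromosome IV and 3.25% on the other autosomes.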

How the data were processed

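The authors deposited 1 peak list for each ChIP replicate and 1 combined list. Per the file headers, coordinates are on WormBase WS220, and the source column names SPP peaks passed through IDR, which ranks peaks by reproducibility between replicates. Each peak has a deposited score whose unit is not named, and scores were used only to rank peaks within 1 list. The aligner, versions, thresholds, read depth, use of the Input libraries and the way the replicates were pooled are, in the sources used here, not given. The Input libraries entered no comparison of their own. Overlaps, shares and exact tests were computed with Python 3.11.15, pandas 2.3.3 and scipy 1.17.1, and the functions were checked on simulated lists. Sites were placed by midpoint, and chromosome lengths were the last peak end in the 3 lists. Sites named in the text were taken by fixed rules. These were best, widest, narrowest and lowest rank, missing or weak replicate support, closest pair, fullest and sparsest windows, first and last. The longest gaps were also named, as were the runs with the most sites, ordered by extent where that number was equal. The chromosome, lists and tests were chosen with earlier results of these data known. Genes and sequence at the sites were not analysed here, for want of a genome and an annotation on WS220.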

Additional observations from a re-analysis of the deposited data

Results flagged for a closer look

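Replicate peaks outside the combined list entered the tests above only where the best peaks of a replicate alone served as the sites. The shares by rank in the full replicate lists, which were not tested, also included them. On chromosome IV, 1216 of the 5154 such peaks of replicate 2 (23.6%) overlapped a peak of replicate 3, and 1219 of the 4731 of replicate 3 (25.8%) overlapped one of replicate 2. Among those within the best 5000 of a replicate, 197 of 612 were shared in replicate 2 (32.2%) on chromosome IV, against 35.7% on the other autosomes, and 173 of 415 in replicate 3 (41.7%), against 38.0%. No control level was measured for these counts. The best-ranked peaks outside the combined list were IV:13353366-13353669, IV:4811837-4812140 and IV:11280923-11281226 in replicate 2, at ranks 1137, 1267 and 1323, of which the second had a peak in replicate 3, at rank 14985. In replicate 3 they were IV:2220229-2220508, IV:16180838-16181117 and IV:9718362-9718641, at ranks 1717, 1727 and 1822, none with a peak in replicate 2.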

How the results depend on the processing

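Of 47 values under other settings, 36 kept direction and call, and of 43 under settings chosen after seeing the data, 40 did. The lower support of chromosome IV sites in replicate 3 lost its call with reciprocal overlap of at least 50% (odds ratio 0.70), the best 1166 (0.95) or 4664 (0.47) peaks of each replicate, and without chromosome III (0.67) or V (0.65) in the comparison. With the best 4664 peaks the odds ratios for replicate 2 and for both replicates turned to 1.14 and 1.05. Of the sites strongly supported by 1 replicate, the share held by replicate 2 was 47.5% with the best 1166 peaks, where the call was lost. The odds ratio for gaps under 5 kb turned below 1 in single replicates (0.8978 to 0.9004) and was 0.997 at a limit of 10 kb. The ratio for the piRNA windows ranged from 0.59 to 0.80 with 1 replicate left out. It was 0.72 with the wider windows of 4 to 7 Mb and 13 to 17 Mb. The odds ratio of strong support for runs against lone sites passed at 0.58 with midpoints within 100 bp, a rule that sites sharing 1 replicate peak can seldom both meet, and at 0.60 with overlapping sites merged. It missed the threshold at 0.66 to 0.86 under the other 5 settings. The causes were not tested. No paired analysis was possible because no values of the Input libraries, numbered like the ChIP ones, were analysed here. With read depth unknown, it cannot be said how far depth limits either replicate.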
